A study of Mus musculus with 93 samples.

Results

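In the livers of male mice from 7 strains, 87 genes were shifted in the same direction by a Western diet (WD) in every strain. The genes were chosen by their measured values. Counts were scaled to log2 CPM (the log2 of counts divided by library size, on the usual CPM scale, with TMM factors and a prior count of 2), and the mean on the control diet (CD) was subtracted from the mean on WD within each strain. A gene was a member when its mean log2 CPM over all 93 mice was 1 or more and its difference was 0.4 or more in all 7 strains, or -0.4 or less in all 7. Of the 53465 genes in the table, 19110 passed the filter on low counts and 11149 of these had a mean log2 CPM of 1 or more. Among the 11149, 46 genes (0.413%) were higher on WD in every strain by the rule and 41 (0.368%) were lower. A difference of the same sign but of any size in all 7 strains was found for 973 genes (8.73%) that were higher and 1526 (13.7%) that were lower. The difference between the diets selected the members, so it is given below as a description and without a test.

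The strains were C57BL/6J, DBA/2J, A/J and 129S1/SvImJ, which are domesticated inbred lines, and WSB/EiJ, CAST/EiJ and PWK/PhJ, which are inbred lines derived from wild mice. All mice, controls included, lived at 30°C (thermoneutrality) from 6 wk of age, and were fed from 7 wk of age either WD, with 40% of its energy from fat, or CD, with 10%. The labels name no transgene and no targeted allele. On CD and WD there were 8 and 8 C57BL/6J mice, 6 and 7 DBA/2J, 5 and 6 A/J, 7 and 6 129S1/SvImJ, 6 and 6 WSB/EiJ, 7 and 8 CAST/EiJ, and 6 and 7 PWK/PhJ. Each strain was spread over 2 cohorts (CAST/EiJ over 3), and the cohorts of WSB/EiJ held no other strain. The labels do not say which mice shared a cage.

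The list with the most members was that of cholesterol synthesis. Liver cells build cholesterol from acetyl-CoA by way of mevalonate, isoprenoids, squalene and lanosterol, and nearly every enzyme of this chain is encoded by a target of the transcription factor SREBP-2. SREBP-2 is held in the endoplasmic reticulum by SCAP and the INSIG proteins when sterols are plentiful, is released when they are scarce, and acts on promoters together with NF-Y, which binds CCAAT boxes, and Sp1, which binds GC boxes. Among the genes that were higher on WD, no list held more than 4 members, and they included acute phase proteins, collagens and enzymes of lipid and drug metabolism.

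The 93 libraries, all of which were used, held between 40020424 and 49894856 gene-assigned reads (median 46618609). Reads of every strain were mapped to the C57BL/6J genome. The mean share of unmapped reads ran from 2.11% in the A/J WD group to 13.3% in the CAST/EiJ WD group, so a difference in level between strains and a difference in mapping cannot be told apart. CPM is not divided by gene length, and levels are therefore compared between groups for a gene and not between genes. In whole liver, fewer cells of a type and less RNA per cell cannot be told apart either.

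**Figure D1:**
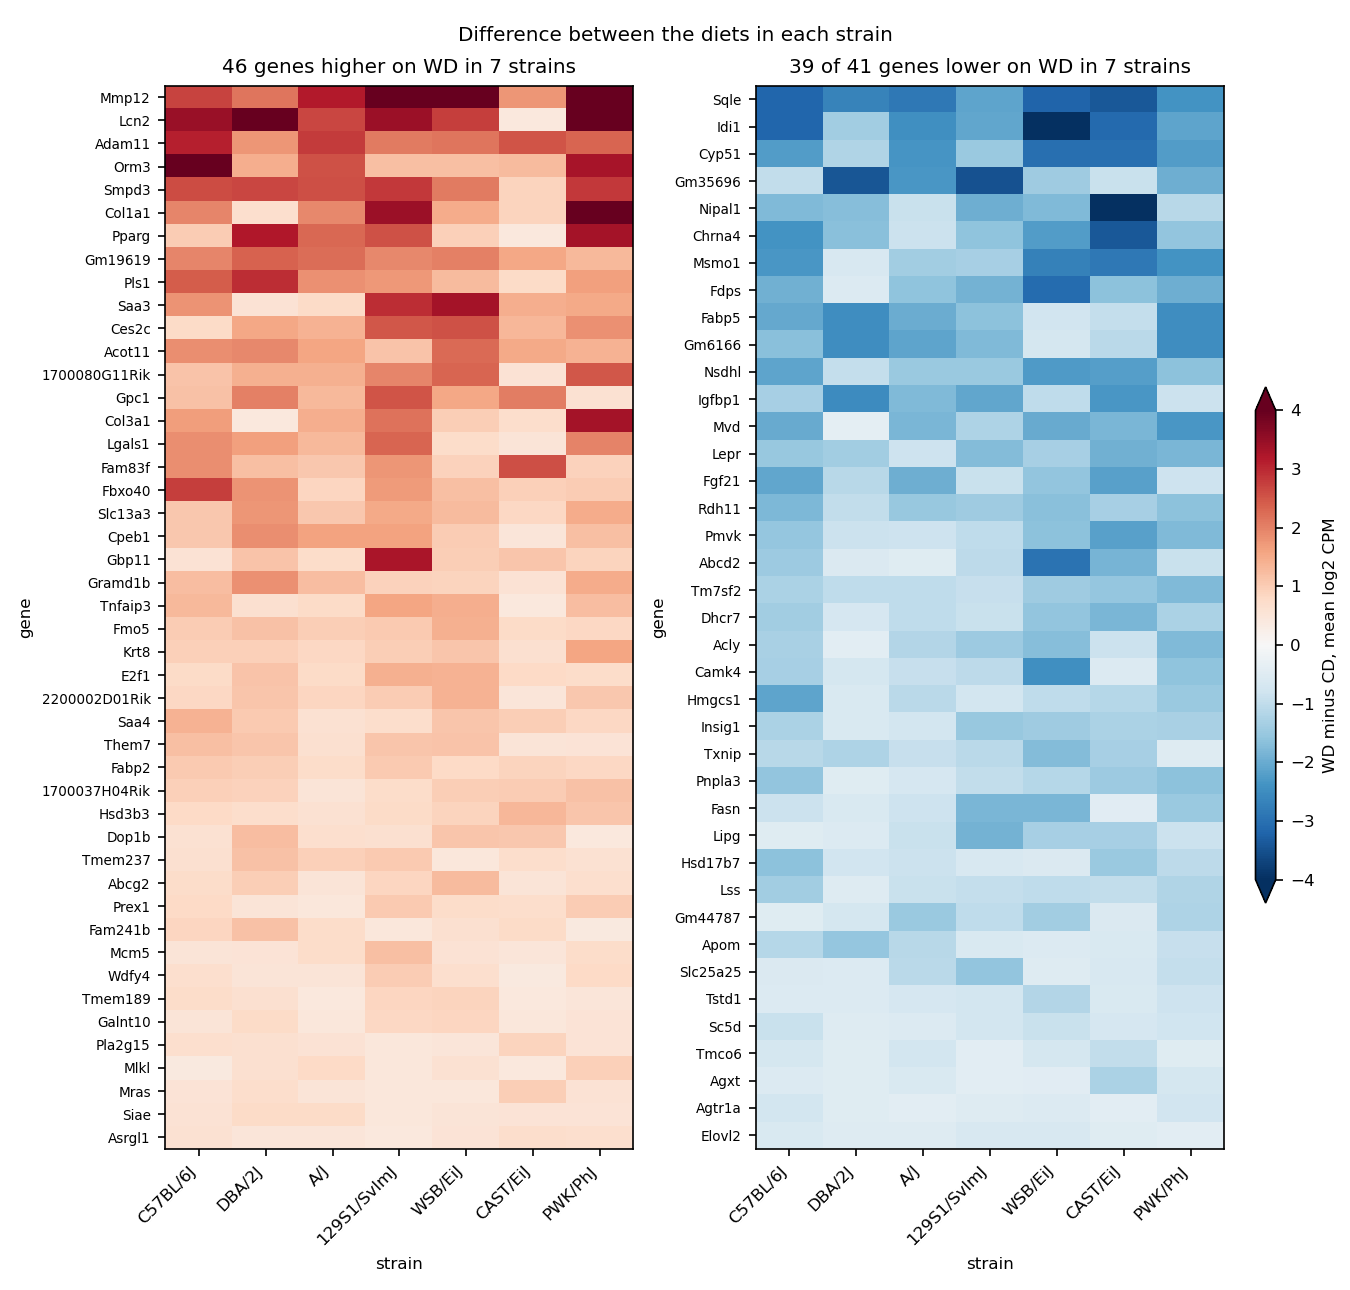
Difference between the diets (mean log2 CPM on WD minus mean on CD, colour scale from -4 to 4) for the 46 genes that were higher and 39 of the 41 that were lower on WD, ordered by the mean over the 7 strains. Every square in the left panel is 0.4 or more and every square in the right panel is -0.4 or less because the genes were chosen so, while the size of the difference varied along a row by up to 4.36 on the log2 scale (Mmp12).

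Of 20 enzymes from acetyl-CoA to cholesterol, 15 were members, and all 15 were lower on WD. The median of the mean difference over the 20 enzymes was -1.2 on the log2 scale, beside -0.02 over all 11149 genes. Of the 5 enzymes that were no members, 4 of which are named here after their values were seen, Mvk, Fdft1 and Ebp were also lower in 7 of 7 strains but missed -0.4 in at least 1 of them. Acat2 was lower in 6 strains and 0.05 higher in CAST/EiJ.

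**Figure D2:**
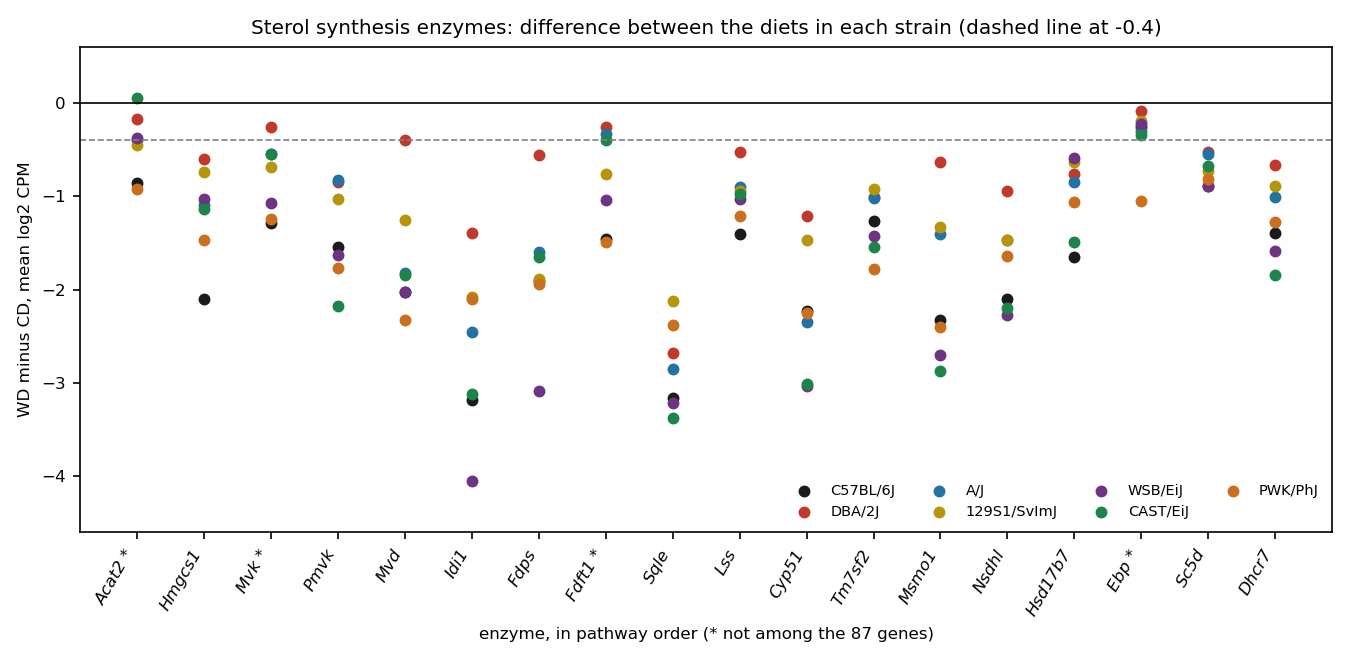
Difference between the diets (mean log2 CPM on WD minus mean on CD) for 18 of the 20 enzymes of sterol synthesis in the order of the pathway, with 1 point for each strain; an asterisk marks the 4 enzymes shown that are not among the 87 genes. Sqle lies lowest as a group of points, between -3.38 and -2.12, and the DBA/2J point is nearest to 0 for 10 of the 14 members shown.

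Sqle, squalene epoxidase, had the largest mean difference of all 41 lower genes, -2.83. In CAST/EiJ it ran from 40.7 to 78.7 CPM on CD with a median of 44.8, and from 3.93 to 5.69 with a median of 4.82 on WD. In WSB/EiJ the lowest, median and highest values were 9.85, 56.4 and 99 CPM on CD and 3.96, 4.41 and 4.97 CPM on WD. The 5 A/J mice on CD had 34.8, 40.3, 48.4, 57.5 and 80.4 CPM of Sqle, and the 6 on WD ran from 5.35 to 8.42 with a median of 6.85. In these 3 strains, as in the other 4, every mouse on WD lay below every mouse on CD. The Sqle difference was -3.38 (standard error of the difference, SE, 0.14) in CAST/EiJ, -3.21 (SE 0.49) in WSB/EiJ and -2.85 (SE 0.23) in A/J. It was -3.16 in C57BL/6J, -2.68 in DBA/2J, -2.38 in PWK/PhJ and -2.12 in 129S1/SvImJ. Sqle thus had the least spread, relative to its size, of the 3 lower genes with the largest mean difference.

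Cyp51, lanosterol demethylase, was also apart between the diets in all 7 strains. Its CD median was 194 CPM in C57BL/6J, where the mice ran from 141 to 275, and its WD median was 41.2 CPM, with a range from 36.6 to 45.5. In CAST/EiJ Cyp51 ran from 44.4 to 75.8 CPM on CD (median 54.6) and from 5.39 to 9.56 CPM on WD (median 6.59). The CAST/EiJ mice on WD thus had the lowest median Cyp51 level of the 7 strains, and the size of the difference, -3.01 (SE 0.15), was close to that of WSB/EiJ, -3.03 (SE 0.33). The smallest Cyp51 difference was that of DBA/2J, -1.21 (SE 0.18), from a median of 99 CPM (72.8 to 133) on CD to 40.2 CPM (34.1 to 67.2) on WD.

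Pmvk, phosphomevalonate kinase, was the third sterol gene whose diets did not overlap in any strain. In PWK/PhJ it ran from 32.1 to 89.1 CPM on CD (median 47.8) and from 12.6 to 17.6 CPM on WD (median 15.2). The difference in Pmvk was smallest in A/J, -0.83, and largest in CAST/EiJ, -2.18 (SE 0.14), where the median was 8.53 CPM on CD and 1.68 CPM on WD.

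Idi1, isopentenyl-diphosphate isomerase, had a mean difference of -2.63 and one of the widest ranges over strains, 2.66 on the log2 scale. In WSB/EiJ the lowest, median and highest values of Idi1 were 6.21, 22.4 and 38 CPM on CD and 0.626, 1.07 and 1.82 CPM on WD, a difference of -4.05 (SE 0.45). In DBA/2J they were 10.2, 20.3 and 30.5 CPM on CD and 5.97, 6.67 and 12 CPM on WD, a difference of -1.39 (SE 0.26). The diets overlapped in DBA/2J and in PWK/PhJ and were apart in the other 5 strains. Part of the Idi1 transcript, 684 of 3027 bases, is identical to the annotated copy Gm13502, and reads from such a stretch could be assigned to either gene or to neither.

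Hmgcs1, HMG-CoA synthase, differed less, with a mean difference of -1.17. Hmgcs1 was apart in C57BL/6J alone, where its median was 265 CPM on CD and 56.5 CPM on WD and its difference was -2.1 (SE 0.26).

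Fdps, farnesyl diphosphate synthase, was counted at a low level, since its mean log2 CPM was 1.23, and its gene overlaps Gm43738 on the same strand, so that reads in the shared stretch could be left uncounted. Its median was 15.5 CPM on CD and 3.97 CPM on WD in PWK/PhJ, and 3.03 and 0.26 CPM in WSB/EiJ. In CAST/EiJ the median was 0.635 CPM on CD and 0.246 CPM on WD. The difference in Fdps ran from -0.56 (SE 0.44) in DBA/2J, where the diets overlapped, to -3.09 (SE 0.34) in WSB/EiJ.

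The other 9 sterol members had mean differences from -1.95 (Msmo1) to -0.72 (Sc5d). Mvd, which makes isopentenyl diphosphate, was -1.67, Nsdhl -1.73, Tm7sf2, a sterol reductase, -1.28, Dhcr7, which acts near the end of the chain, -1.24, and Lss, which closes the rings of lanosterol, -1. The mean difference of Hsd17b7 was -1. The gene with the narrowest spread over strains among the sterol members was Sc5d, whose differences lay between -0.89 and -0.52.

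A table of promoters from RefSeq (assembly GRCm38.p6, 250 bases before to 50 after each start) held 65 of the 87 members, too small a share to describe all members, and 12 of the 15 sterol members. It held no entry for Fdps and Sqle. The letters CCAAT, on either strand, were found in 12 of the 12 sterol promoters (100%) and in 41.1% of the 27025 genes with a promoter. The GC box GGGCGG was found in 11 of 12 (91.7%) beside 38.2%, and the E-box CACGTG in 3 of 12 (25%) beside 8.09%. The nuclear receptor motif AGGTCA was found in 2 of 12 (16.7%) beside 18.1%. The sterol regulatory element, searched as TCACNCCAC, was found in 1 of 12 (8.33%), in Hmgcs1, beside 1.44%. Of the other members, 17 lower and 36 higher genes had a promoter. CCAAT was found in 10 of the 17 and 17 of the 36, GGGCGG in 11 and 17, CACGTG in 3 and 6, and TCACNCCAC in 0 of the 17 and 1 of the 36, Saa3. The windows were not matched for base composition, these counts are descriptions, and none of the motifs is particular to the sterol members.

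The stretch around the CCAAT box nearest to the start is shown for the 6 sterol members in which such a stretch lies before the start and outside the annotated gene, because this is the letter pattern that all 12 promoters share. They are read 5′ to 3′ on the strand of the gene, with the box in capitals. CCAAT marks a box on the strand of the gene and ATTGG a box on the other strand.
Nsdhl, chrX:72918392-72918436, + strand: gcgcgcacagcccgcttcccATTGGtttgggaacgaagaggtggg
Mvd, chr8:122443425-122443469, - strand: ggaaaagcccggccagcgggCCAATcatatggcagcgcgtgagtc
Pmvk, chr3:89454385-89454429, + strand: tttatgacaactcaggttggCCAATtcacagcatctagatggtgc
Hmgcs1, chr13:119690286-119690330, + strand: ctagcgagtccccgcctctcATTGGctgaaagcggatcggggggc
Hsd17b7, chr1:169969254-169969298, - strand: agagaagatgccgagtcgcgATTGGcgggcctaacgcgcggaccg
Lss, chr10:76531523-76531567, + strand: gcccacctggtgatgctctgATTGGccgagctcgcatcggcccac

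The number of bases between the box and the start was 22 for Mvd, 40 for Hmgcs1, 57 for Lss, 68 for Hsd17b7, 104 for Nsdhl and 131 for Pmvk. The sterol regulatory element of Hmgcs1, here in capitals on the strand of the gene, lies 128 bases before the start.
Hmgcs1, chr13:119690189-119690247, + strand: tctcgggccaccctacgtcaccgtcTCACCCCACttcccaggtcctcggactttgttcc

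Summed over the 15 genes, the level in C57BL/6J ran from 1390 to 2800 CPM on CD (median 1890) and from 544 to 769 CPM on WD (median 664). In CAST/EiJ it ran from 752 to 955 CPM on CD (median 879) and from 280 to 362 CPM on WD (median 314). In PWK/PhJ it ran from 1310 to 4500 CPM on CD (median 2090) and from 596 to 1010 CPM on WD (median 719). The ratio of the medians was 2.84 in C57BL/6J, 2.84 in WSB/EiJ, 2.8 in CAST/EiJ and 2.9 in PWK/PhJ. It was 1.95 in 129S1/SvImJ, 1.79 in A/J and 1.67 in DBA/2J. DBA/2J was the strain in which the diets overlapped, and they were apart in the other 6. The sum weighs each gene by its CPM. Sc5d, which had the highest mean log2 CPM of the 15 genes (8.14) and the smallest mean difference (-0.72), weighs most in it. The ratios therefore do not give the change of a typical gene of the 15.

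**Figure D3:**
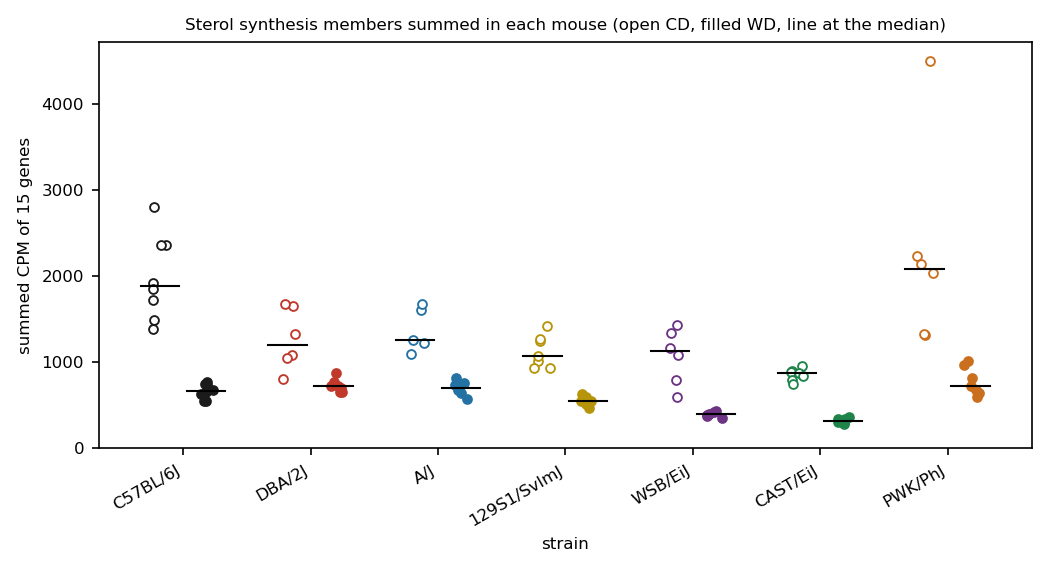
Summed CPM of the 15 sterol synthesis members in each mouse, by strain (open circles CD, filled circles WD, lines at the medians, axis from 0). The WD medians lie between 314 CPM (CAST/EiJ) and 720 CPM (DBA/2J), and 1 PWK/PhJ mouse on CD reaches 4500 CPM.

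The 6 DBA/2J mice on CD had summed levels of 804, 1050, 1080, 1330, 1650 and 1680 CPM, and the 7 on WD ran from 650 to 870 CPM with a median of 720. The 2 highest CD values belonged to mice 5 and 6. The median difference of the 15 genes was -0.66 in DBA/2J, the nearest to 0 of the 7 strains, and -0.42 without mice 5 and 6. Without them 13 of the 15 genes were still lower on WD in DBA/2J, but 8 of the 15 passed the rule. The median was -1.91 in C57BL/6J, -1.84 in CAST/EiJ, -1.77 in PWK/PhJ, -1.63 in WSB/EiJ, -1.25 in 129S1/SvImJ and -1.09 in A/J. Whether these strain differences in size exceed the spread between mice was not tested, since the same contrast chose the genes.

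Of 17 genes for the control of sterol level and uptake, 2 were members. Insig1, which retains SCAP in the endoplasmic reticulum and is itself a target of SREBP-2, was lower in 129S1/SvImJ by the largest amount, -1.51 (SE 0.14), from a median of 206 to 75.8 CPM, and in DBA/2J by the smallest, -0.61 (SE 0.3). Without DBA/2J CD mice 5 and 6, Insig1 no longer passed the rule. Of the 16 genes for sterol control and uptake with a mean log2 CPM of 1 or more, 7 were lower and 2 higher in all 7 strains.

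Of 22 genes for the synthesis of fatty acids and glycerolipids, 3 were members, 11 were lower in all 7 strains and 1 was higher in all 7, and the median of their mean differences was -0.39. Acly, which makes cytosolic acetyl-CoA for both fatty acids and sterols, had a mean difference of -1.23. In PWK/PhJ Acly ran from 455 to 2240 CPM on CD (median 811) and from 219 to 336 CPM on WD (median 285). In DBA/2J it ran from 161 to 1050 CPM on CD (median 600) and from 235 to 485 CPM on WD (median 331), a difference of -0.43 with an SE of 0.49. Acly was apart between the diets in 5 strains and overlapped in DBA/2J and CAST/EiJ. Without DBA/2J CD mice 5 and 6, Acly, Fasn and Pnpla3 no longer passed the rule. In DBA/2J cohort 4 the differences, counted as positive in the direction of the rule, were -0.07 for Acly and -0.05 for Fasn.

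Fasn, fatty acid synthase, was lowest relative to CD in 129S1/SvImJ and WSB/EiJ, with a difference of -1.83 in each. In 129S1/SvImJ it ran from 835 to 1450 CPM on CD (median 1030) and from 259 to 378 CPM on WD (median 307). The CAST/EiJ mice ran from 110 to 368 CPM on CD and from 116 to 223 CPM on WD, a difference of -0.44 (SE 0.27). Elovl2, which lengthens polyunsaturated fatty acids and is not on the list, had the smallest mean difference of the lower genes, -0.55, and the narrowest range over strains of all members, 0.2 on the log2 scale. Its differences lay between -0.64 in 129S1/SvImJ and -0.43 in PWK/PhJ.

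Pnpla3, a lipid droplet protein of hepatocytes, was a member through few mice in DBA/2J. There it ran from 1.64 to 99.4 CPM on CD (median 9.38) and from 3.55 to 11.9 CPM on WD (median 8.05), so that the difference of -0.48 had an SE of 1.08. Mouse 5 had 99.4 CPM and mouse 6 had 79.2 CPM, and the other 4 had 1.64, 1.64, 7.45 and 11.3 CPM. Without mouse 5 of the CD group the DBA/2J difference turned, and the smallest of the 7 differences, counted as positive in the direction of the rule, was -0.15. In PWK/PhJ the Pnpla3 median was 73.5 CPM on CD and 28.5 CPM on WD, and the diets were apart. They were apart in C57BL/6J too and overlapped in all other strains.

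Fgf21, a hormone that hepatocytes release in fasting, had a mean difference of -1.51 and was the only member whose diets overlapped in all 7 strains. In C57BL/6J it ran from 13.9 to 64.4 CPM on CD (median 51.1) and from 6.54 to 20.3 CPM on WD (median 10.4). Fgf21 in CAST/EiJ ran from 0.733 to 28.8 CPM on CD (median 8.9) and from 0.655 to 3.49 CPM on WD (median 1.42), a difference of -2.17 with an SE of 0.85. Igfbp1, a binding protein of insulin-like growth factors that insulin represses, varied in the same way between mice of a group. In CAST/EiJ it ran from 67.2 to 2100 CPM on CD (median 424) and from 32.5 to 188 CPM on WD (median 57.9). In DBA/2J, the strain in which the diets were apart, Igfbp1 ran from 44.8 to 133 CPM on CD (median 82) and from 10 to 18.6 CPM on WD (median 13.1), a difference of -2.52 (SE 0.29).

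Fabp5, a fatty acid binding protein, had a mean difference of -1.76 and was the member on the list of lipid-associated macrophage markers that was lower on WD. Its median was 78.9 CPM on CD (45.8 to 166) and 15.3 CPM on WD (10.1 to 20.6) in PWK/PhJ, and 10.6 CPM (7.06 to 21.9) and 6.34 CPM (4.72 to 13.9) in WSB/EiJ. Gm6166, a processed pseudogene, had a mean difference of -1.76 too. It is 98.3% identical to Fabp5 over its 409 bases, and the residuals of both genes over the 93 mice had a correlation of 0.94. Gm6166 was counted at up to 0.759 CPM in C57BL/6J and at a median of 36 CPM in PWK/PhJ on CD. In C57BL/6J, whose genome the reads were mapped to, the mean log2 CPM on CD was 6.13 for Fabp5 and -1.73 for Gm6166. In the other strains reads could be assigned to either gene, which was not tested. The levels of both genes are uncertain there, and Gm6166 is uncertain as a member of its own.

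Nipal1, a magnesium transporter, Chrna4, a subunit of nicotinic acetylcholine receptors, and the long noncoding RNA Gm35696 were among the 12 lower genes with the largest mean differences. In CAST/EiJ Nipal1 ran from 0.882 to 4.3 CPM on CD (median 2.16), whereas on WD the mice had between 0 and 5 reads and a median of 0.0367 CPM. Its fitted difference there, -4.67, depends on the prior count. Chrna4 had between 0 and 4 reads per mouse in WSB/EiJ on WD. Its median in DBA/2J was 37.5 CPM on CD (7.8 to 90.3) and 7.65 CPM on WD (5.5 to 17.3). Gm35696 was apart between the diets in 5 strains, with -3.5 (SE 0.27) in 129S1/SvImJ and -0.89 (SE 0.18) in CAST/EiJ.

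The remaining 13 lower genes, apart from Gm44787, Tmco6 and Agtr1a, which the rule names, fall outside the rule by which genes are named here and are named after their values were seen. Lepr, the leptin receptor, had a mean difference of -1.51, Rdh11, a retinol dehydrogenase, -1.48, and Abcd2, a peroxisomal fatty acid transporter, -1.33. Camk4, a calmodulin-dependent kinase, was at -1.23, Txnip, which binds thioredoxin, at -1.14, Lipg, endothelial lipase, at -1.05, and the noncoding Gm44787 at -0.99. Apom, an apolipoprotein of HDL, was at -0.93, the mitochondrial carrier Slc25a25 at -0.84, Tstd1 at -0.73 and Tmco6 at -0.65. Agxt, which detoxifies glyoxylate, was at -0.64 and Agtr1a, the angiotensin II receptor, at -0.56. Lepr varied widely between the CAST/EiJ mice on CD, from 29.5 to 422 CPM.

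Fmo5, a flavin-containing monooxygenase, had a mean difference of 1.03, with a range over strains of 0.67, and its diets were apart in all 7 strains. In WSB/EiJ it ran from 439 to 679 CPM on CD (median 617) and from 1110 to 2110 CPM on WD (median 1530). The Fmo5 level in CAST/EiJ ran from 559 to 751 CPM on CD (median 627) and from 902 to 1220 CPM on WD (median 1060). The 5 A/J mice on CD had 378, 389, 399, 427 and 551 CPM of Fmo5, and the 6 on WD ran from 678 to 1010 CPM with a median of 842. Among these 3 strains WSB/EiJ had the largest difference in Fmo5, 1.43 (SE 0.19), and CAST/EiJ the smallest, 0.76 (SE 0.08).

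Siae, a sialic acid esterase, had a smaller mean difference, 0.6, but was also apart in all 7 strains. In CAST/EiJ it ran from 15.5 to 22 CPM on CD and from 22 to 33.1 CPM on WD, and the highest mouse on CD and the lowest on WD were equal to the 3 digits given. In DBA/2J Siae ran from 34.8 to 42.3 CPM on CD (median 40.6) and from 56.9 to 76.9 CPM on WD (median 70.6), a difference of 0.78 (SE 0.07). Siae overlaps Tbrg1 and Spa17 on the opposite strand, and 745 of its 4947 transcript bases are shared with Tbrg1, so without strand in the counting the genes cannot be told apart there.

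Acot11, an acyl-CoA thioesterase, had a mean difference of 1.67, with a median of 2.98 CPM on CD (2.46 to 4.55) and 17 CPM on WD (9.32 to 21.8) in WSB/EiJ. In 129S1/SvImJ, the strain with the smallest difference, 1.13 (SE 0.08), Acot11 ran from 12.2 to 16.5 CPM on CD and from 26.2 to 35.6 CPM on WD. The diets overlapped in C57BL/6J and were apart in the other 6 strains. Acot11 overlaps Fam151a on the opposite strand, and 760 of its 5689 transcript bases are 99.9% identical to Fam151a. Ces2c, a carboxylesterase, had a mean difference of 1.7, is 96.1% identical to Ces2d-ps over 1684 of its 1970 bases, and is therefore uncertain. Fabp2, the intestinal fatty acid binding protein, had differences between 0.72 in A/J and 1.04 in C57BL/6J, and Hsd3b3, a steroid dehydrogenase, between 0.62 in A/J and 1.33 in CAST/EiJ.

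Adam11, a membrane protein of the ADAM family without protease activity, had the third largest mean difference of the higher genes, 2.39, and was apart in all 7 strains. In C57BL/6J it ran from 3.61 to 7.53 CPM on CD (median 4.96) and from 18.8 to 61.5 CPM on WD (median 47.2), a difference of 3.11 (SE 0.22). In DBA/2J it ran from 34.1 to 59.7 CPM on CD (median 49.1) and from 130 to 189 CPM on WD (median 161), a difference of 1.75 (SE 0.15). The DBA/2J mice on CD thus had about the Adam11 level of the C57BL/6J mice on WD, while the size of the difference was the smallest of the 7 strains. The 5 A/J mice on CD had 12.4, 13.9, 14.4, 19 and 25.6 CPM, and the 6 on WD ran from 95.2 to 131 CPM.

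Smpd3, a neutral sphingomyelinase, had a mean difference of 2.35. In 129S1/SvImJ it ran from 1.37 to 4.12 CPM on CD (median 2.23) and from 12.7 to 20.4 CPM on WD (median 15.5). In CAST/EiJ, where its CD level was the highest, it ran from 11 to 31.7 CPM on CD (median 19.7) and from 24.1 to 42.8 CPM on WD (median 34.5), a difference of 0.89 (SE 0.21). The diets overlapped for Smpd3 in CAST/EiJ and A/J. Pparg, the receptor that drives the genes of fat storage, had a mean difference of 1.97 and was far from alike in size. In DBA/2J it ran from 0.862 to 1.95 CPM on CD (median 1.41) and from 9.03 to 20.4 CPM on WD (median 12.8), a difference of 3.19 (SE 0.24). In CAST/EiJ, Pparg had between 4 and 21 reads per mouse on CD and between 7 and 22 on WD, with a difference of 0.43 and an SE of 0.3.

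**Figure D4:**
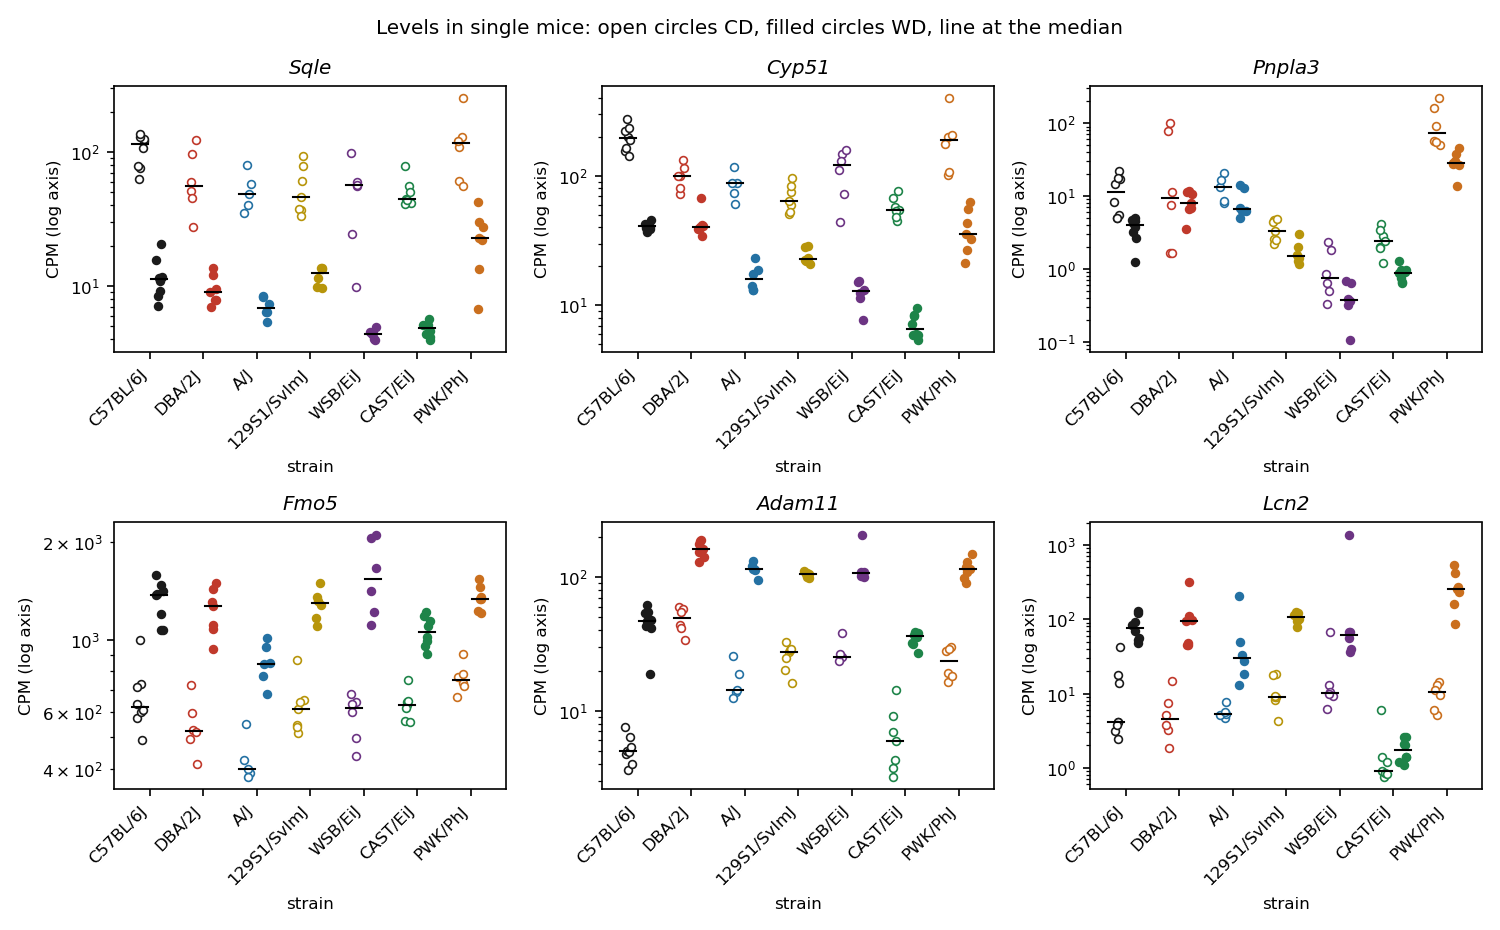
CPM in each mouse (log axis) for 3 members that were lower on WD (Sqle, Cyp51, Pnpla3) and 3 that were higher (Fmo5, Adam11, Lcn2), by strain; open circles are CD, filled circles WD, and lines mark the medians. Filled and open circles are apart in every strain for Sqle, Cyp51, Fmo5 and Adam11. Those of Pnpla3 are apart in C57BL/6J and PWK/PhJ alone, and those of Lcn2 overlap in WSB/EiJ and CAST/EiJ.

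Of 18 acute phase genes, 4 were members, all higher on WD, while 6 were higher and 3 lower in all 7 strains. Lcn2, lipocalin-2, which binds bacterial siderophores, had a mean difference of 3.08 and a range over strains of 4.28. In PWK/PhJ it ran from 5.14 to 14.5 CPM on CD (median 10.5) and from 86.5 to 542 CPM on WD (median 256), a difference of 4.71 (SE 0.41). Lcn2 in CAST/EiJ ran from 0.758 to 6 CPM on CD (median 0.907) and from 1.08 to 2.63 CPM on WD (median 1.71), a difference of 0.43 with an SE of 0.42. In WSB/EiJ 1 mouse on WD had 1380 CPM of Lcn2, while the next highest had 67.4 CPM, and without that mouse the difference was 1.96 in place of 2.75.

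Orm3, an orosomucoid, had a mean difference of 2.35 and the widest range over strains but Mmp12, 4.31. In C57BL/6J it ran from 0.178 to 1.13 CPM on CD (median 0.255) and from 1.45 to 35.4 CPM on WD (median 23.1), a difference of 5.52 (SE 0.6). In WSB/EiJ, where the CD level was highest, it ran from 56.6 to 96.8 CPM on CD and from 146 to 323 CPM on WD, a difference of 1.21 (SE 0.21). Saa3 and Saa4, serum amyloid A genes, had mean differences of 1.77 and 0.95. Saa3 was largest in WSB/EiJ, 3.32 (SE 0.34), and smallest in DBA/2J, 0.59 (SE 0.23), and Saa4 was apart between the diets in DBA/2J alone.

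Of 35 matrix genes, 3 were members. Of the 30 with a mean log2 CPM of 1 or more, 13 were higher in all 7 strains and 0 were lower in all 7, and the median of their mean differences was 0.46. Mmp12, the metalloelastase of macrophages, had the largest mean difference of all members, 3.5, and was counted at a low level. In 129S1/SvImJ it ran from 0.231 to 0.492 CPM on CD, or 11 to 20 reads, and from 12.8 to 36.1 CPM on WD, a difference of 6.11 (SE 0.24). In C57BL/6J it ran from 0.763 to 68.2 CPM on CD (median 1.51) and from 6.32 to 54.5 CPM on WD (median 27.9), a difference of 2.71 that was 3.33 without CD mouse 2. In CAST/EiJ the Mmp12 median was 0.336 CPM on CD and 1.22 CPM on WD. Mmp12 overlaps Mmp1b on the opposite strand.

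Col1a1 and Col3a1, the fibrillar collagens of types I and III, had mean differences of 2.05 and 1.53, and their residuals over the 93 mice had a correlation of 0.96. Col1a1 in PWK/PhJ ran from 3 to 4.59 CPM on CD (median 3.5) and from 18.5 to 117 CPM on WD (median 70). In DBA/2J it ran from 3.45 to 4.43 CPM on CD and from 4.61 to 8.18 CPM on WD, so that the diets were apart although the difference, 0.66 (SE 0.11), was the smallest of the 7 strains. In CAST/EiJ the Col1a1 median was 2.99 CPM on CD and 4.99 CPM on WD, and 1 mouse on WD reached 74.8 CPM. Without that mouse, number 3 of its group, Col1a1, Col3a1, Lcn2 and 4 other genes no longer passed the rule. Krt8, a keratin of hepatocytes and bile duct cells, had differences between 0.64 in CAST/EiJ and 1.59 in PWK/PhJ, and 941 of its 1958 transcript bases are 98.6% identical to Krt8-ps.

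The medians of summed cell type markers differed between the diets, in some strains by little. The median sum of 13 leukocyte markers was higher on WD in 7 of 7 strains. Its group medians were 172 to 396 CPM on CD and 216 to 546 CPM on WD. That of 8 neutrophil markers was higher in 7 of 7, with medians of 2.95 to 7.25 CPM and 4.4 to 13 CPM. In DBA/2J the medians hardly differed, at 291 and 292 CPM for leukocytes and 6.98 and 7.12 CPM for neutrophils. Of the single markers, 2 of 13 for leukocytes and 3 of 8 for neutrophils were higher in all 7 strains. The sum of 15 hepatocyte markers was lower on WD in 7 of 7 strains, with medians of 118000 to 214000 CPM on CD and 86500 to 149000 CPM on WD. The sum of 8 cholangiocyte markers was higher on WD in 6 of 7 strains, with medians of 26.6 to 110 CPM on CD and 29.6 to 373 CPM on WD, and went from 110 to 373 CPM in PWK/PhJ, the strain with the largest Krt8 difference. The sum of 10 Kupffer cell markers was higher in 6 of 7 strains, with medians of 554 to 2010 CPM and 594 to 2840 CPM. Its medians on CD and WD were 641 and 643 CPM in PWK/PhJ and 997 and 841 CPM in DBA/2J. The sum of 10 stellate cell markers was higher on WD in 1 of 7 strains. Of the 12 markers of lipid-associated macrophages, 7 were higher and 1 was lower in all 7 strains, and 2, Mmp12 and Fabp5, were members. Their sum was higher on WD in 6 of 7 strains, and in DBA/2J its median was 297 CPM on CD and 238 CPM on WD. Of these 7 lists, 15 of 16 hepatocyte markers and all markers of the other 6 lists were in the table and passed the filter on low counts, so none of those was at 0 in every mouse. The part of these cell types in the higher acute phase, matrix and keratin genes was not tested.

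The other genes that were higher on WD are also named after their values were seen, apart from the long noncoding Gm19619 (1.9), the actin bundler Pls1 (1.8), and Them7 (0.9), Asrgl1 (0.56) and Galnt10 (0.63), which the rule names, and Mcm5, Fam241b, Wdfy4 and Mlkl, which it names too. Between 1.62 and 1.16 lay the noncoding 1700080G11Rik, the proteoglycan Gpc1, the galectin Lgals1, Fam83f, Fbxo40, the dicarboxylate transporter Slc13a3, the RNA-binding Cpeb1, the interferon-inducible Gbp11 and the sterol transfer protein Gramd1b. Between 1.06 and 0.75 lay Tnfaip3, which restrains NF-kB, the cell cycle factor E2f1, 2200002D01Rik, 1700037H04Rik, Dop1b, Tmem237, the efflux transporter Abcg2 and Prex1. Between 0.71 and 0.61 lay Fam241b, the replication factor Mcm5, Wdfy4, Tmem189, the lysosomal phospholipase Pla2g15, the necroptosis effector Mlkl and Mras. Mcm5 was 1 of 17 cell cycle genes listed, and of the 11 with a mean log2 CPM of 1 or more, 4 were higher in all 7 strains. Gbp11 belongs to a family with copies up to 95.9% identical in part, and is uncertain. Tmem189 shares 695 of its 2329 transcript bases with Gm20431, and 812 are 95.6% identical to 1700003N22Rik. Gpc1 shares 977 of 4176 bases with Ankmy1, 2200002D01Rik 362 of 1466 with Yif1b, and Fam83f 691 of 2993 with A430088P11Rik. Reads from such stretches could be assigned to either gene or to neither.

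Of the 87 members, 14 had a largest strain difference of less than 2 times the smallest, and 17 had a range over strains above 2 on the log2 scale. The smallest difference among the 46 higher genes was most often that of CAST/EiJ (18 genes), whose median over the 46 was 0.76, while the medians of the other strains lay between 0.85 in A/J and 1.16 in 129S1/SvImJ. Among the 41 lower genes it was most often that of DBA/2J (14 genes), whose median was -0.7, while the other strains had medians between -1.01 in A/J and -1.47 in PWK/PhJ. The diets did not overlap in any of the 7 strains for 3 higher genes (Adam11, Fmo5 and Siae), which are all 3 of the 11149 genes with this pattern (0.0269%), and for 3 lower genes (Sqle, Cyp51 and Pmvk), beside 6 of 11149 (0.0538%). The same contrast chose the genes, so nothing is read from these shares.

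At the edge of the rule, the members with the smallest difference in any strain were Fam241b with 0.401 in PWK/PhJ, Wdfy4 with 0.403 in CAST/EiJ and Mlkl with 0.403 in C57BL/6J. Just outside lay Omd, higher by 0.399 in CAST/EiJ, and, among lower genes, G6pc with a size of 0.399 in CAST/EiJ and Aldoc with a size of 0.397 in DBA/2J. The mean differences of these 3 genes, 1.28 for Omd, -1.65 for G6pc and -1.09 for Aldoc, were larger than those of many members. A further 101 genes were 0.4 or more higher in exactly 6 strains and 70 were lower by as much in exactly 6.

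Counts of calls in the single strains are given for completeness. With limma-voom, 20 of the 46 higher members had an adjusted p below 0.05 in all 7 strains (all genes, 36 of 19110, 0.188%), and 17 of the 41 lower members did (all genes, 62 of 19110, 0.324%). Gbp11, Slc25a25 and Pnpla3 missed the threshold in 5 strains each, the most of any member. Among the top genes, Lcn2 missed it in CAST/EiJ (limma-voom adjusted p = 0.86), Mmp12 in DBA/2J and CAST/EiJ and Fdps in DBA/2J. These tests use the contrast that chose the genes, so nothing is read from the counts.

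The cohorts divide the mice into 15 strata of strain and cohort with both diets. In all 15, 37 of the 46 higher members were higher on WD (all genes, 2.16% of 11149), and 30 of the 41 lower members were lower (all genes, 3.92%). A difference of 0.4 or more on that side in all 15 strata, which are as small as 1 mouse on a diet, was found for 14 higher and 13 lower members, or 27 of 87. The share of all genes at this size, and the shares in single strata, were not counted. The stratum with the fewest members on the side of the rule was CAST/EiJ cohort 1, with 74 of 87, and it held 1 mouse on CD and 3 on WD. In the other 14 strata 84 to 87 members were on that side. Without the 4 mice of CAST/EiJ cohort 1, 48 genes were higher and 43 lower by the rule, of which 41 and 40 were members. In single mice on WD, between 78 and 87 of the 87 members lay beyond the CD mean of their strain on the side of the rule. The lowest number was found in C57BL/6J, and in 129S1/SvImJ every mouse had all 87. The same mice and the same contrast chose the genes, so nothing is read from the counts over strata or over mice.

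The CD means entered the rule, through the difference and through the floor on the mean level, but the order of the strains on CD did not. The CD levels of the 7 strains are therefore described with limma-voom's F and not taken as an independent test. The F passed an adjusted p of 0.05 in 45 of the 46 higher members and 40 of the 41 lower ones, beside 93.7% of the 19110 genes tested and 97.1% of the 11149 with a mean log2 CPM of 1 or more. The share of the members is therefore near the background and is not a result about them. The exceptions were Gramd1b and Slc25a25. The 4 members with the largest F were Them7 (F = 81.6), Gm44787 (F = 77.1), Adam11 (F = 61.7) and Siae (F = 59.9).

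The ratio of the highest to the lowest strain mean on CD had a median of 5.26 over the higher members and 3.68 over the lower ones, beside 1.64 over all 11149 genes. These ratios too rest on values that entered the rule. The 11149 genes were not matched to the members in level, so nothing is read from the gap between the medians. Orm3 had the widest ratio, 209, from C57BL/6J to WSB/EiJ. Them7, an acyl-CoA thioesterase family member, had a median of 10.9 CPM in C57BL/6J (6.8 to 16.1) and 55.3 CPM in CAST/EiJ (47.1 to 70.5) on CD. Its difference between the diets was 1.21 in C57BL/6J and 0.5 in CAST/EiJ. Among the sterol members, Pmvk had the largest F, 37.3, with a CD median of 8.53 CPM in CAST/EiJ and 47.8 CPM in PWK/PhJ. CAST/EiJ was also the strain with the largest share of unmapped reads, and the part of mapping in its low levels was not tested.

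When the mean of each strain and diet was subtracted, so that neither the diet nor the strain difference remained, the 15 sterol members still moved together from mouse to mouse. The median correlation over their 105 pairs was 0.66 across 93 mice and 100% of the pairs were above 0, beside a median of 0 over all pairs of the 11149 genes. It was 0.73 in the 45 mice on CD and 0.5 in the 48 on WD, and 0.63 with the cohorts of each strain centred too. The closest sterol pairs were Idi1 with Cyp51, 0.89, and Idi1 with Nsdhl, 0.86. All values come from the same libraries and scaling, and the correlations are descriptions.

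Of the lower genes outside the pathway, those near to the sterol members by the median correlation with them included Insig1 (0.61), Fasn (0.59), Rdh11 (0.56) and Acly (0.47). Chrna4 (0.44), Abcd2 (0.41) and Pnpla3 (0.4) followed. Igfbp1 (-0.24), Txnip (-0.21), Lepr (-0.12) and Fgf21 (-0.05) had values below 0, although their diet differences had the same direction. So had Slc25a25 (-0.18), Agxt (-0.12), Gm35696 (-0.08), Gm44787 (-0.07) and Apom (-0.06). Within the pathway, Hsd17b7 had the lowest value, 0.28. The median over pairs of higher members was 0.21, and that over pairs of a higher and a lower member was -0.02. With the sterol members, the median correlations of the 46 higher members ran from -0.32 for Adam11 and -0.31 for 1700080G11Rik to 0.36 for Pls1.

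**Figure D5:**
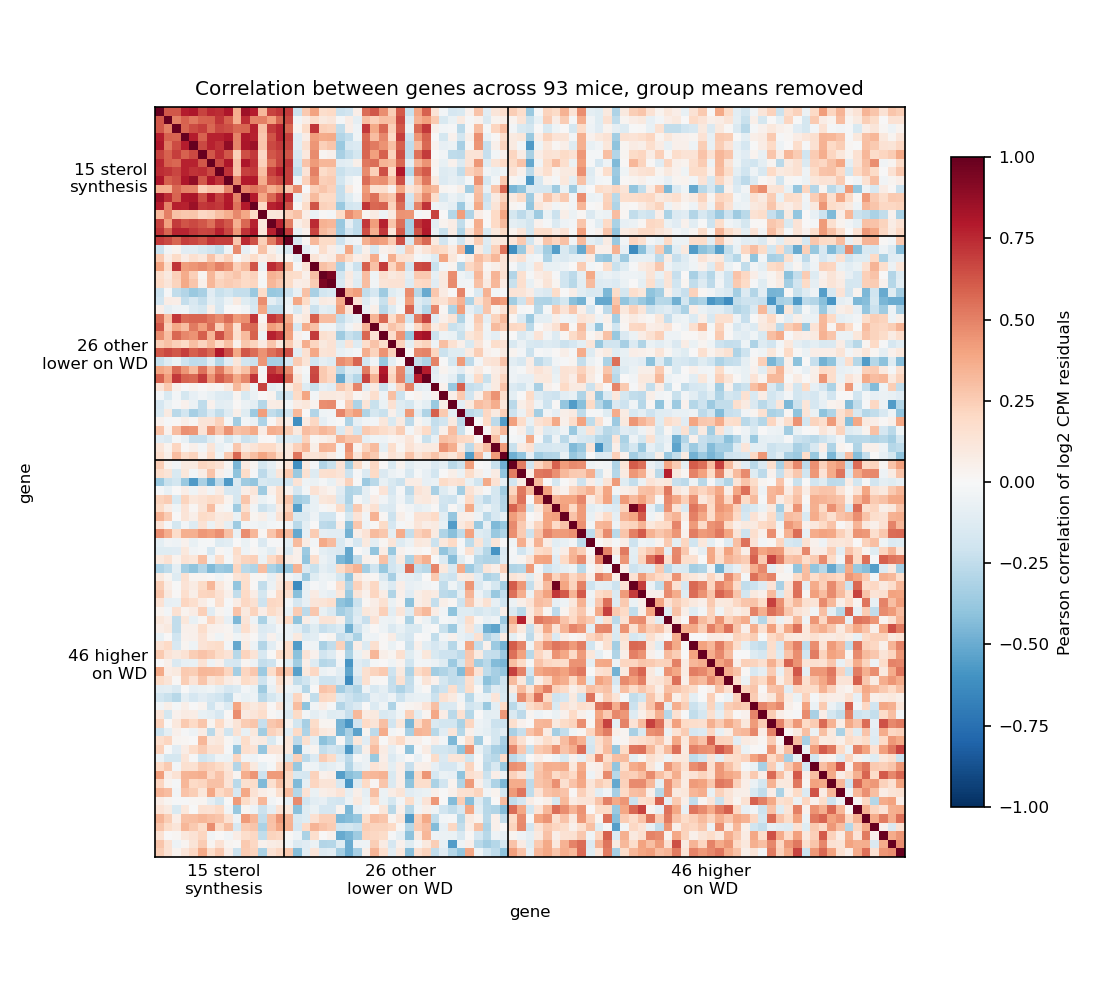
Pearson correlation of log2 CPM between all pairs of the 87 genes across 93 mice after the mean of each strain and diet was subtracted (colour scale from -1 to 1; lines divide 15 sterol synthesis members, 26 other lower genes and 46 higher genes). The block of sterol members is positive throughout, with a median of 0.66, and the block of higher with lower genes is centred near 0, with a median of -0.02.

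With library totals alone as the scale, in place of TMM, 72 genes were higher and 32 lower in all 7 strains, so that 69.2% of the calls were higher instead of 52.9%. All 46 higher members and 32 of the 41 lower ones were among them.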

How the data were processed

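Liver RNA of 93 male mice (7 strains, 2 diets, 14 groups of 5 to 8) was sequenced by the authors. The deposited values are raw counts: reads assigned per gene and mouse, not normalized. The authors mapped the reads to the C57BL/6J genome with STAR and took its gene counts, and the submitters' processing notes name STAR 2.7.1a and GRCm38 (mm10). Whether the counting separated the strands is not given in the sources used here. The 4 summary lines of unassigned reads were left out of library sizes and tests and served only for the unmapped share.

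Symbols and overlaps came from GENCODE vM21, and near-identical copies from blastn 2.17.0. Low counts were filtered by filterByExpr (minimum count 10, edgeR 4.0.16, R 4.3.3). TMM factors and a prior count of 2 gave log2 CPM, and limma-voom (limma 3.58.1) used 1 model whose 14 coefficients are the group means, since the study's methods name TMM and limma-voom but not the formula. Adjusted p-values are Benjamini-Hochberg over all genes tested. SE is that of the difference of the 2 group means of log2 CPM. Residuals are log2 CPM minus the group mean. The fits were tested on simulated data. Alternatives, 3 of them added after seeing the data, were other scalings, prior counts, floors and sizes of the rule, medians, cohort and RIN, edgeR's quasi-likelihood test, DESeq2 1.42.0, and leaving out mice.

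The members and all gene lists (39 lists written by hand) were chosen with earlier results of these data known. In each direction the text names the 12 members with the largest mean difference, the 4 with the narrowest and the 4 with the widest range over strains, and the 4 with the highest level. Over both directions together it names those in a list, the 3 nearest the threshold on each side, and the 4 with the largest F on CD. Some genes that the rule names are not reported here. Other members are marked as named after their values were seen. The mice are the replicates. The precision of a level is limited by the 5 to 8 mice of a group, and for genes with few reads by counting error.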

Additional observations from a re-analysis of the deposited data

Results flagged for a closer look

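For the 13 members with values by mouse that were examined in this way, 28 of 182 groups held 1 mouse that stood apart from the others in CPM by Dixon's ratio (its gap to the nearest mouse over the range of the group). Chance gives about 1 in 20 for normally distributed values. CPM values were not shown to be so distributed, and nothing is read from the number of groups. The ratio was taken on CPM without a log scale, and in 25 of the 28 cases the mouse was the highest of its group.

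Lcn2 had such a mouse in 6 groups. The ratio was 0.977 in WSB/EiJ on WD, where 1 mouse had 1380 CPM, 0.886 in WSB/EiJ on CD (67.3 CPM beside 13.1 for the next), and 0.877 in CAST/EiJ on CD (6 beside 1.4). It was 0.812 in A/J on WD (203 beside 48.7), 0.764 in DBA/2J on WD (321 beside 110) and 0.625 in C57BL/6J on CD (42.9 beside 17.6). Without the CAST/EiJ mouse the Lcn2 difference in that strain was 0.8 in place of 0.43. Without the A/J mouse it was 2.17 in place of 2.67.

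Igfbp1 had such a mouse in 5 groups, with ratios of 0.567 in C57BL/6J on CD, 0.644 in C57BL/6J on WD, 0.57 in 129S1/SvImJ on CD, 0.7 in 129S1/SvImJ on WD and 0.663 in CAST/EiJ on CD. The CAST/EiJ mouse had 2100 CPM of Igfbp1 beside 752 for the next, and without it the difference was -1.89 in place of -2.33.

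Among the sterol genes, the ratio was 0.603 for Sqle in CAST/EiJ on CD, 0.647 for Cyp51 in PWK/PhJ on CD, and in DBA/2J on WD 0.632 for Idi1 and 0.776 for Cyp51. The last 2 belong to the same mouse, number 5 of the DBA/2J WD group. Without it the DBA/2J differences were -1.51 for Idi1 and -1.32 for Cyp51. Fgf21 stood apart for its lowest mouse in C57BL/6J on CD (0.621) and its highest in CAST/EiJ on WD (0.563), and Fabp5 in WSB/EiJ on WD (0.78).

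Adam11 had such a mouse in C57BL/6J on WD (its lowest, 0.535), and in WSB/EiJ on CD (0.79) and WD (0.909, 208 CPM beside 110). Smpd3 had such a mouse in A/J on CD (0.862, 4.38 CPM beside 1.02) and 129S1/SvImJ on CD (0.628), and its A/J difference was 3.1 without that mouse in place of 2.58. The ratio was 0.701 for Mmp12 in C57BL/6J on CD, 0.628 for the lowest Pparg mouse in WSB/EiJ on WD, 0.743 for Acot11 in A/J on CD, and 0.717 in A/J and 0.614 in 129S1/SvImJ for Fmo5 on CD. Some mice stood apart for several genes. C57BL/6J CD mouse 2 did so for Lcn2, Igfbp1 and Mmp12, and WSB/EiJ WD mouse 4 for Lcn2, Adam11 and Fabp5. C57BL/6J WD mouse 3 did so for Igfbp1 and Adam11. A/J CD mouse 3 did so for Acot11 and Fmo5, and 129S1/SvImJ CD mouse 7 for Igfbp1 and Fmo5. With the mouse left out in each of the 28 cases, the difference of that gene in its strain kept its direction.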

How the results depend on the processing

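The number of members depended on the rule's own settings and on the scale. There were 72 higher genes with library totals as the scale and 22 with a minimum mean log2 CPM of 3. With a minimum difference of 0.3 there were 82 higher and 67 lower genes, and with 0.5 there were 25 higher. Under the other settings, the added ones included, the counts stayed within 1.5 times 46 and 41. With each of the 93 mice left out in turn there were 41 to 52 higher and 36 to 44 lower genes, and 51 of the 87 members were kept in every case. Leaving out DBA/2J CD mouse 5 gave the fewest lower genes, and reversed Pnpla3, whose smallest difference became -0.15 (at most 0.67 with another mouse left out). Without mice 5 and 6 of that group, an alternative chosen after seeing the data, 31 lower genes remained by the rule, 30 of them members. Without C57BL/6J CD mouse 2 and WSB/EiJ WD mouse 4, also chosen afterwards, there were 49 higher and 42 lower genes. Medians in place of means kept 36 of 46 and 34 of 41. Mean differences and smallest differences of single members changed by less than the spread between mice in 1739 of 1740 values. The remaining value was the reversal of Pnpla3. Differences between means of several mice can hardly change by as much as that spread, so nothing is read from this count. Members called in all 7 strains numbered 37 with limma-voom, 28 to 42 under the alternatives. CD levels differed in 80 to 87 members. No paired analysis was possible because the labels give no replicate numbers, and the numbers used here follow the order of accession. Groups of 5 to 8 mice limit what a difference of 0.4 can show in a single strain, and genes of few reads, such as Fdps, Pparg and Mmp12, are limited by depth in CAST/EiJ.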
